A study of Mus musculus with 6 samples.

Results

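The autophagy and lysosome genes are 33 genes chosen by name for their known roles and not for their values in these libraries. Earlier results of these data were known when they were chosen. Of the 17145 genes in the UMI count table, 31 were among these 33, and *Becn1* and *Tfeb* were not listed there. With at least 10 UMIs over the 6 libraries, 29 of the 33 were tested. *Hexa* and *Lamp1* had 8 and 2 UMIs and were not. The libraries were made from FS6KD mouse hearts, which carry a gene trap in *Ndufs6* on a mixed genetic background. The trap knocks down this subunit of mitochondrial complex I, mostly in the heart. All 6 libraries carry this genotype, and no wild-type library was included. Photo-isolation chemistry (PIC) reverse-transcribes mRNA within a tissue section using photo-caged primers, and ultraviolet light on areas picked by anti-Atf3 immunostaining opens the cDNA of these areas for CEL-seq2 library preparation. The labels give 3 Atf3 high and 3 Atf3 low libraries of female heart and name the cell type as cardiomyocytes. Neither the age of these mice nor whether a high and a low library came from the same heart was given in the sources used here. A unique molecular identifier (UMI) is a random tag that lets the copies of a single cDNA molecule be counted once.

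Autophagy encloses cytoplasm, protein aggregates or organelles such as mitochondria in a double membrane, the autophagosome, which then fuses with the lysosome. The ULK1 and Beclin 1 complexes start the membrane, WIPI proteins mark it, and 2 linked conjugation reactions attach ATG8 proteins (the LC3 and GABARAP proteins) to it. Receptors such as p62 (*Sqstm1*) tie cargo to ATG8, and lysosomal proteases and lipid hydrolases break the cargo down. Heart muscle cells are long-lived and depend on this route to clear damaged mitochondria and glycogen, and TFEB is a transcription factor that raises many of these genes together.

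The libraries held from 81117 to 210588 UMIs and from 6936 to 11971 detected genes, so that 1 UMI was worth from 4.66 to 13.6 CPM (UMIs scaled to a common library size, with TMM factors). A count of 0 allows up to 3 UMIs, or from 14.0 to 40.9 CPM, counting error only. The UMIs of *Atf3* numbered 50, 7 and 25 in replicates 1, 2 and 3 of Atf3 high, against 35, 0 and 8 in Atf3 low. *Ndufs6* had 2, 0 and 3 UMIs in these Atf3 high libraries and 0 in each Atf3 low library. Atf3 high replicate 2 stood apart from its label, with 16 UMIs of the Y-linked *Ddx3y* and *Eif2s3y* and none of *Xist*. Of 12 cardiomyocyte markers, *Mb* was not listed, and the other 11 had 37425 UMIs in all and were present in both groups.

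To ask whether areas with more Atf3 protein differed in the mRNAs of autophagy and the lysosome, the 2 groups were compared in edgeR (quasi-likelihood test), and Benjamini-Hochberg adjustment ran over 7665 genes. No member passed an adjusted p of 0.05, against 0.0913% of all genes (7 genes), and the smallest adjusted p among the members was 0.964 (edgeR). At an unadjusted p under 0.05 the members numbered 0 in either direction, against 5.79% of all genes (3.55% in the direction of Atf3 high and 2.24% in that of Atf3 low). DESeq2 and limma-voom also gave 0 members at an unadjusted p under 0.05, and limma-trend gave 1, beside 442 of all 7665 genes. The fitted log2 fold change (positive when higher in Atf3 high) was above 0 for 14 members and below 0 for 15. It ran from −1.10 to 1.10 with a median of −0.07, beside a median of 0.11 over all genes and 55.2% of them above 0. Scaling by library size alone moved the median of all genes to 0.31 and put 18 members above 0 and 11 below.

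**Figure D1:**
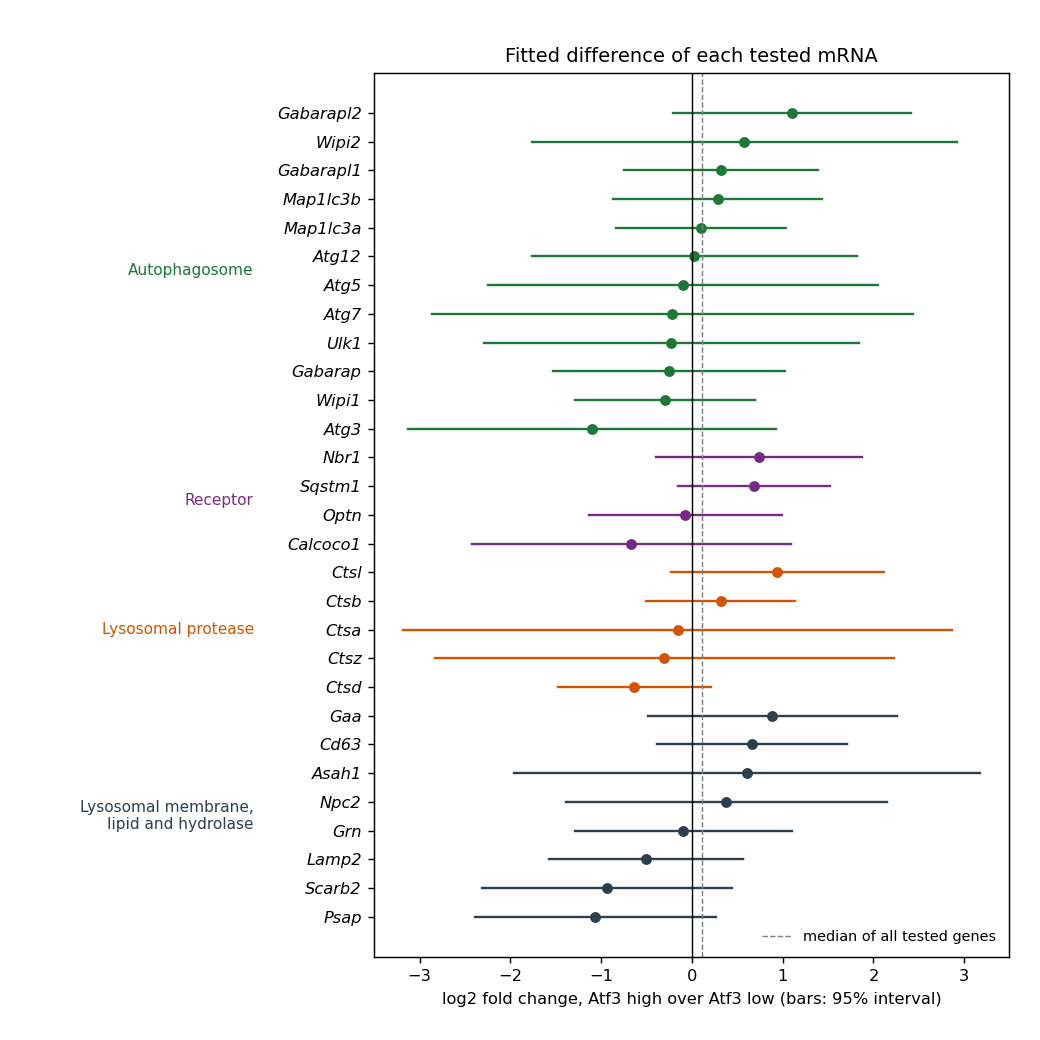
Fitted log2 fold change of Atf3 high over Atf3 low for the 29 tested mRNAs by class, with points for the estimates and bars for 95% intervals. Every bar crosses 0, and the estimates lie on both sides of the dashed median of all tested genes (0.11).

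The intervals were wide. The biological coefficient of variation over all genes was 53.6%. For 12 of the 29 tested members the 95% interval reached beyond 2-fold in both directions, and 0 members had an interval that lay within 2-fold either way. A 2-fold rise was inside the interval of 22 members and a 2-fold fall inside that of 19. Missing the threshold therefore does not show that these mRNAs were alike in both areas. In these bulk libraries, fewer cells of a type and less RNA per cell cannot be told apart.

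In 2 of the 29 tested members the groups did not overlap, against 11.0% of all genes. One was higher in every Atf3 high library (7.07% of all genes) and one lower (3.89% of all genes). *Gaa* (chromosome 11, 119267887 to 119285454, plus strand, GRCm38) encodes acid alpha-glucosidase, which digests glycogen in the lysosome and is deficient in Pompe disease. In replicates 1, 2 and 3 its level was 86.4, 109 and 88.5 CPM for Atf3 high and 47.2, 50.1 and 54.5 CPM for Atf3 low, from 17, 9 and 19 UMIs and 7, 6 and 4 UMIs. All 3 Atf3 high libraries lay above all 3 Atf3 low libraries. The group means were 94.5 ± 12.3 and 50.6 ± 3.68 CPM (SD, n = 3), with a log2 fold change of 0.89 ± 0.68 (estimate ± standard error, adjusted p = 0.974, edgeR). *Psap* (chromosome 10, 60277627 to 60302597, plus strand) encodes prosaposin, the precursor of the saposins that help lysosomal enzymes reach sphingolipids. It was at 50.8, 60.3 and 41.9 CPM in Atf3 high and at 108, 100.1 and 109 CPM in Atf3 low, from 10, 5 and 9 UMIs and 16, 12 and 8 UMIs. Here each Atf3 high library was below each Atf3 low library. The means were 51.0 ± 9.21 and 106 ± 4.81 CPM (SD, n = 3), and the log2 fold change was −1.07 ± 0.66 (standard error, adjusted p = 0.964, edgeR). Each of these levels rests on 4 to 19 UMIs. With each library left out in turn, *Gaa* stayed between 0.78 and 0.95 and *Psap* between −1.19 and −0.94.

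**Figure D2:**
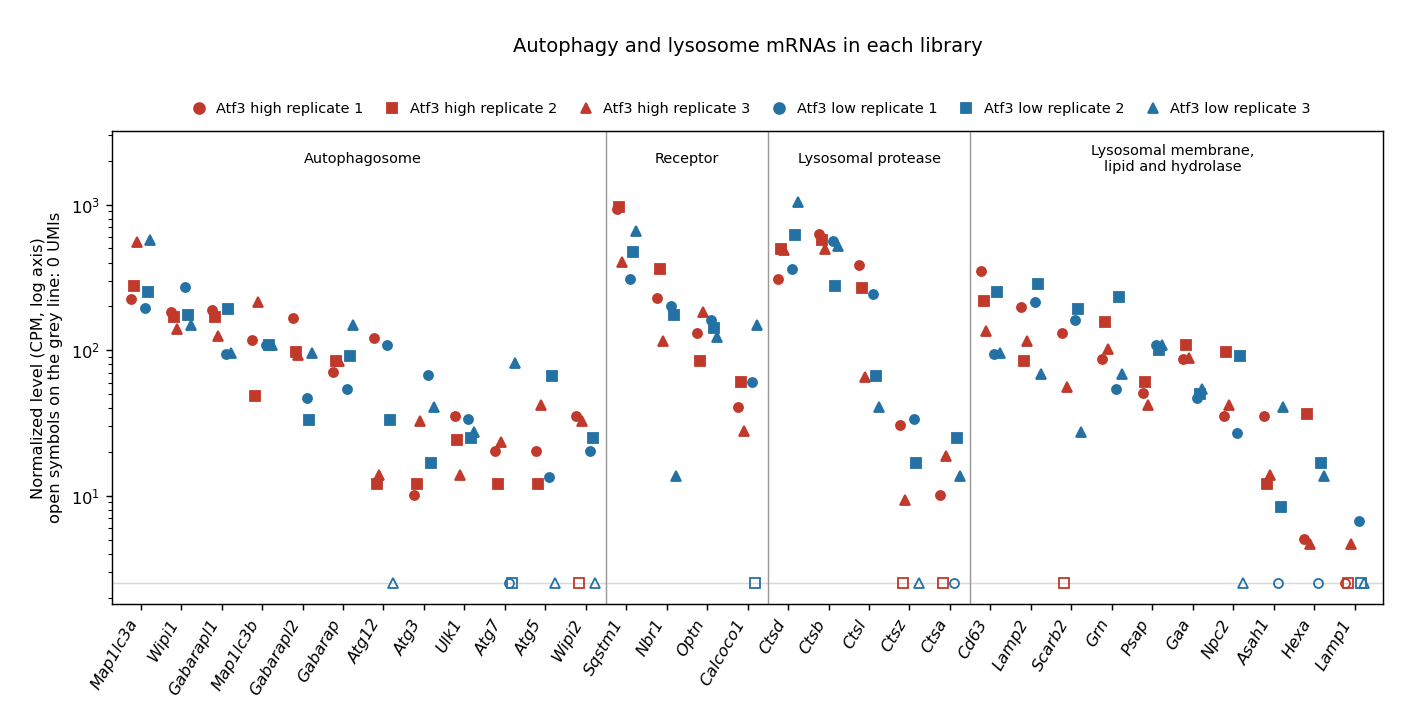
Normalized level (CPM, log axis) of the 31 listed mRNAs in each of the 6 libraries, grouped by class, with Atf3 high in red, Atf3 low in blue, a symbol per replicate and open symbols for 0 UMIs. *Gaa* and *Psap* are the tested mRNAs in which the colours separate, and in the others they mix.

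The promoters of the members were read for letters known to be bound by TFEB and by factors of the ATF family, since Atf3 defined the groups and TFEB regulates lysosome genes. Windows from 250 bases before to 50 after the start were taken from RefSeq (GRCm38.p6), with both strands searched, and matched 28 of the 33 members. TCACGTGA, the core of the CLEAR element of TFEB, was in 3 member windows (*Atg3*, *Ctsa* and *Ctsd*) and in 0.974% of 32851 windows of all genes. CACGTG, the E-box inside it, was in 8 (those 3 and *Atg5*, *Atg7*, *Ctsl*, *Gaa* and *Lamp1*) and in 7.15% of all windows. TGACGTCA, the full ATF/CRE site, was in *Atg5* alone among the members and in 1.79% of all windows. Its arm TGACGT was in 5 (*Atg5*, *Cd63*, *Gaa*, *Gabarapl2* and *Nbr1*) and in 7.51% of all windows. TGANTCA, the AP-1 site, was in *Psap* alone among the members and in 7.81% of all windows. Matches whose 30 bases reach past the start are not shown, nor are further E-box matches of *Atg3*, *Atg7*, *Ctsd*, *Ctsl* and *Lamp1*. The 30 bases around the other matches, 5′ to 3′ on the strand of the gene, are shown with the motif in capitals (ACGTCA is TGACGT read on the other strand):
*Atg3*, chr16:45158746-45158775, plus strand, 72 bases before the start, between genes: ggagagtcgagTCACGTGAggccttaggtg
*Ctsd*, chr7:142387908-142387937, minus strand, 99 bases before the start, in an exon of another *Ctsd* transcript: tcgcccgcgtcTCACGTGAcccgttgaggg
*Gaa*, chr11:119267811-119267840, plus strand, 140 bases before the start, between genes: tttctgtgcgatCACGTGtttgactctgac
*Gaa*, chr11:119267874-119267903, plus strand, 77 bases before the start, at an exon of another *Gaa* transcript: tttgcaacgcgaTGACGTcctatggctgcc
*Cd63*, chr10:128909228-128909257, plus strand, 105 bases before the start, in an intron of another *Cd63* transcript: gggcccaggctcTGACGTgttatgattgac
*Gabarapl2*, chr8:111940560-111940589, plus strand, 131 bases before the start, between genes: tcccagccacctACGTCAgtctccattccc
*Nbr1*, chr11:101551957-101551986, plus strand, 138 bases before the start, between genes: caagatccagacACGTCAgcggaagggaag
The fitted log2 fold changes of the 3 members with TCACGTGA were −1.10 (*Atg3*), −0.63 (*Ctsd*) and −0.16 (*Ctsa*), beside medians of 0.14 over the 144 tested genes with these letters and 0.10 over 5698 without. The 7 tested members with CACGTG had a median of −0.16, beside 0.21 over 717 tested genes with it and 0.08 over 5125 without. The 5 members with TGACGT had −0.10 (*Atg5*), 0.66 (*Cd63*), 0.74 (*Nbr1*), 0.89 (*Gaa*) and 1.10 (*Gabarapl2*), beside medians of 0.15 over 852 tested genes with these letters and 0.10 over 4990 without. A match describes the letters of a window and not a site in use, and none of these members passed the test.

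Genes that start, extend and elongate the autophagosome gave 12 tested members, 6 above and 6 below 0, with a median log2 fold change of −0.04. Their summed level was 1194, 917 and 1369 CPM in Atf3 high and 1011, 1018 and 1321 CPM in Atf3 low, ranges that overlapped. *Ulk1*, the kinase that starts autophagy, had a log2 fold change of −0.23, from 22 UMIs in all. *Wipi1*, which binds the phosphoinositide of the growing membrane, was at 183, 169 and 139.7 CPM in Atf3 high and 269.5, 175 and 149.8 CPM in Atf3 low. The groups overlapped, and Atf3 low replicate 1 was the highest. Its log2 fold change was −0.30 (standard error 0.49, adjusted p = 0.996, edgeR). Its relative *Wipi2*, with 20 UMIs, had 0.58. The conjugation genes also had few UMIs: *Atg7*, the E1-like enzyme that activates both ATG8 and ATG12, had 16 UMIs, *Atg5* and *Atg3* had 24 and 25, and *Atg12* had 48. Their log2 fold changes were −0.21, −0.10, −1.10 and 0.03. *Atg3*, the E2-like enzyme that passes ATG8 to lipid, was counted 2, 1 and 7 times for Atf3 high against 10, 2 and 3 times for Atf3 low. For *Atg7*, 6 of the 16 UMIs were in Atf3 low replicate 3 and none in the other Atf3 low libraries.

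The ATG8 proteins coat the autophagosome, and *Map1lc3a* and *Map1lc3b* (LC3) and *Gabarap*, *Gabarapl1* and *Gabarapl2* (GABARAP) encode them. *Map1lc3a* (chromosome 2, 155276297 to 155278073, plus strand) was at 224, 278 and 554 CPM in Atf3 high and at 195, 250.3 and 572 CPM in Atf3 low. In both groups replicate 3 was the highest library, and the groups overlapped almost fully. The fitted difference on the log2 scale was 0.10 (standard error 0.46, adjusted p = 0.996, edgeR), with a 95% interval from a fold of 0.561 to 2.05. *Gabarapl2* (chromosome 8, 111940703 to 111953612, plus strand), named here because it had the smallest p of the members, was at 168, 96.6 and 93.2 CPM in Atf3 high and at 47.2, 33.4 and 95.3 CPM in Atf3 low. Atf3 low replicate 3 fell among the Atf3 high libraries. The log2 fold change was 1.10 (standard error 0.65, adjusted p = 0.964, edgeR), and with library size scaling or without Atf3 low replicate 3 its unadjusted p passed 0.05, at 1.32 and 1.52. It did not pass when Atf3 high replicate 1 was left out (0.74), nor when Atf3 low replicate 2 was (0.77). *Gabarapl1* had 0.32, *Map1lc3b* 0.28 and *Gabarap* −0.25, none past the threshold. Near-identical copies of *Map1lc3b* (4) and *Gabarapl2* (3) in the genome were not listed in the table, and how reads shared with them were counted was not given in the sources used here.

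As a share of the UMIs of the 5 ATG8 mRNAs, not scaled by length, *Map1lc3a* took from 29.1% to 51.7% for Atf3 high libraries and from 37.0% to 56.0% for Atf3 low libraries. It was the most counted of the 5 in every library. *Gabarapl2* took 21.9%, 14.3% and 8.70% in the Atf3 high libraries and 9.46%, 4.94% and 9.33% in Atf3 low, with 95% Wilson intervals such as 16.0% to 29.1% in Atf3 high replicate 1 and 4.66% to 18.3% in Atf3 low replicate 1, counting error only. Atf3 high replicate 3 lay below 2 of the Atf3 low libraries, so the shares overlapped.

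Cargo receptors bind ubiquitin or damaged organelles on one side and ATG8 on the other, and all 4 were tested. *Sqstm1* (p62; chromosome 11, 50199366 to 50210827, minus strand) had the most UMIs of all members, 501. Its level was 929.9, 966 and 405 CPM in Atf3 high and 309.97, 476 and 654 CPM in Atf3 low. Atf3 high replicates 1 and 2 were above every Atf3 low library, and replicate 3 was below 2 of them. The means were 767 ± 314 and 479.7 ± 172 CPM (SD, n = 3). The difference on the log2 scale was 0.68, with a standard error of 0.41 and a 95% interval from −0.15 to 1.52 (adjusted p = 0.964, edgeR). Without Atf3 high replicate 3 it was 0.99, and with library size scaling 0.89, and in both its unadjusted p passed 0.05. It was 0.38 without Atf3 low replicate 1 and 0.48 without Atf3 high replicate 2, where it did not. *Nbr1*, a relative of p62 that binds ubiquitin as well, was at 229, 362 and 116 CPM in Atf3 high and at 202, 175 and 13.6 CPM in Atf3 low. The groups overlapped, and the lowest value was a single UMI in Atf3 low replicate 3. The log2 fold change was 0.74 (standard error 0.56, adjusted p = 0.969, edgeR), and 0.25 without that library. *Optn* (optineurin, a mitophagy receptor) had −0.07, and *Calcoco1*, a receptor for the endoplasmic reticulum, had −0.67 with 0 UMIs in Atf3 low replicate 2. The summed receptor level was 1331, 1472 and 731 CPM in Atf3 high and 734.5, 793 and 939.7 CPM in Atf3 low, which gives a ratio of means of 1.43, and Atf3 high replicate 3 was the lowest of all 6 libraries.

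Lysosomal proteases had 5 tested members, 2 above and 3 below 0, and their summed level overlapped between groups (means of 1255 ± 156 and 1272 ± 308 CPM, SD, n = 3). *Ctsb* (cathepsin B, a cysteine protease; chromosome 14, 63122462 to 63145923, plus strand) was at 625, 567 and 498 CPM in Atf3 high and at 566, 275 and 518 CPM in Atf3 low. The groups overlapped, with Atf3 low replicate 2 the lowest. The fit gave a log2 fold change of 0.32 (its standard error 0.41, adjusted p = 0.996, edgeR). *Ctsd* (cathepsin D, the major aspartic protease of the lysosome; chromosome 7, 142375911 to 142388038, minus strand), whose window holds the CLEAR core printed above, was at 309.95, 495 and 484 CPM in Atf3 high and at 364, 617 and 1035 CPM in Atf3 low. Atf3 low replicates 2 and 3 were above every Atf3 high library, and replicate 1 was among them. The log2 fold change was −0.63 (standard error 0.42, adjusted p = 0.964, edgeR). It was −0.20 without Atf3 low replicate 3 and −0.99 without Atf3 low replicate 1.

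*Ctsl* (cathepsin L, a cysteine protease; chromosome 13, 64359337 to 64370890, minus strand), named after its values were seen, was counted at 76, 22 and 14 UMIs for Atf3 high and 36, 8 and 3 UMIs for Atf3 low. That was 386, 266 and 65.2 CPM against 243, 66.7 and 40.9 CPM, overlapping groups in which replicate 1 was the highest of each. Its log2 fold change was 0.94 (standard error 0.58, adjusted p = 0.964, edgeR), and it ranged from 0.37 to 2.03 with each library left out. The summed level of 10 fibroblast markers was 5299.7, 2860.3 and 1179 CPM in Atf3 high and 2675, 1518 and 599 CPM in Atf3 low. The 6 libraries stood in the same order for *Ctsl* as for these markers, which held for 1 of the 29 tested members and for 0.313% of all tested genes. The part of fibroblast RNA in the *Ctsl* values was not tested.

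The 3 cathepsins were not counted in the same proportion across libraries. *Ctsd* took 23.5%, 37.3% and 46.2% of the UMIs of *Ctsb*, *Ctsd* and *Ctsl* in the Atf3 high libraries and 31.0%, 64.3% and 65.0% in the Atf3 low libraries, which overlapped. *Ctsl* took from 6.22% to 29.2% for Atf3 high libraries and from 2.56% to 20.7% for Atf3 low libraries. Among the remaining proteases, *Ctsz* (cathepsin Z) had 15 UMIs and *Ctsa* (cathepsin A, which also protects other lysosomal enzymes) had 10, with log2 fold changes of −0.31 and −0.16. Both overlap other genes on the opposite strand.

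**Figure D3:**
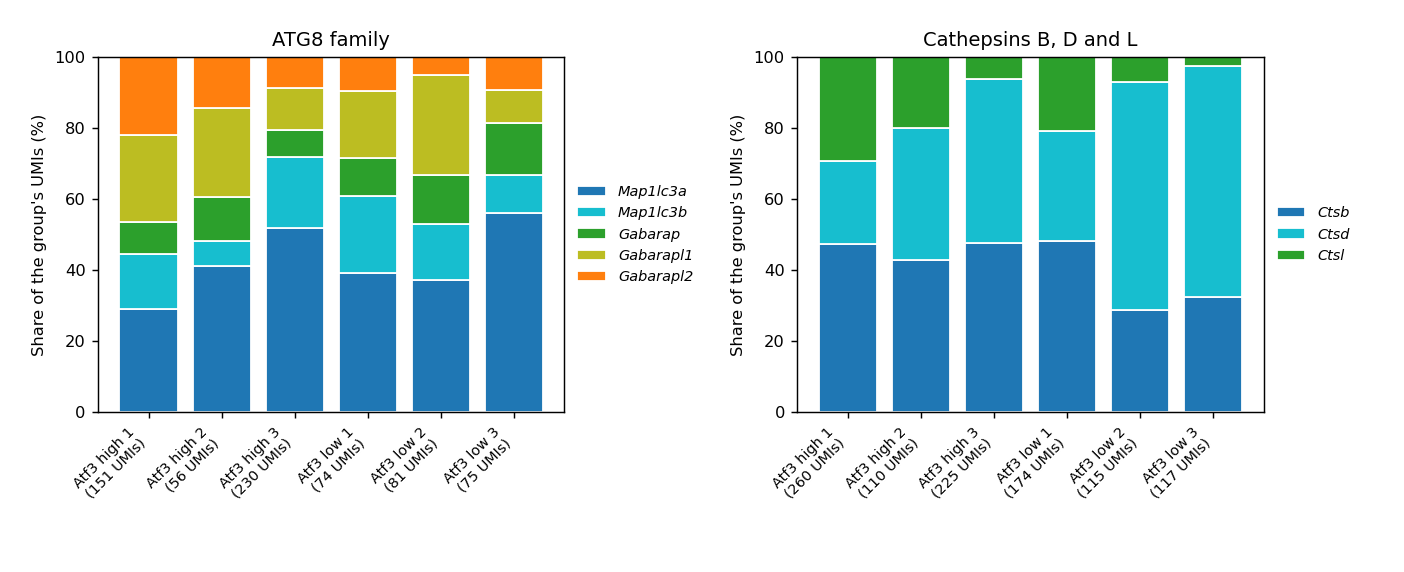
Share (%) of the UMIs of 5 ATG8 mRNAs (left) and of 3 cathepsin mRNAs (right) in each of the 6 libraries, with the number of UMIs behind each bar. *Map1lc3a* is the largest ATG8 share in each library, and *Ctsd* is the largest cathepsin share in Atf3 low replicates 2 and 3.

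Lysosomal membrane, lipid and hydrolase genes gave 8 tested members, 4 above and 4 below 0, with *Gaa* and *Psap* described above at the edges. *Cd63*, a tetraspanin of late endosomes and exosomes (chromosome 10, 128900989 to 128912822, plus strand), was at 351, 217 and 135 CPM in Atf3 high and at 94.3, 250.3 and 95.3 CPM in Atf3 low. Atf3 low replicate 2 was higher than 2 of the Atf3 high libraries. Its log2 fold change was 0.66 (standard error 0.52, adjusted p = 0.982, edgeR). *Cd63-ps*, a copy 98.02% identical over 858 bases, had 96 UMIs of its own, and the sum of both, an alternative added after the data were seen, had 0.63 (standard error 0.46, adjusted p = 0.968, edgeR). *Lamp2*, a membrane glycoprotein needed for fusion of autophagosomes with lysosomes and lost in Danon cardiomyopathy, was at 198, 84.5 and 116 CPM in Atf3 high and at 216, 284 and 68.1 CPM in Atf3 low. The groups overlapped, and replicate 3 of Atf3 low was the lowest library. Its log2 fold change was −0.51 (standard error 0.53, adjusted p = 0.996, edgeR).

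*Scarb2* (LIMP-2, the receptor that carries glucocerebrosidase to the lysosome) was counted 26, 0 and 12 times for Atf3 high and 24, 23 and 2 times for Atf3 low, and its fitted difference was −0.93 on the log2 scale (standard error 0.68). The groups overlapped, and the library without a UMI was Atf3 high replicate 2. The fitted difference was −0.50 without that library and −1.92 without Atf3 high replicate 1, where its unadjusted p passed 0.05. *Grn* (progranulin, a lysosomal cofactor) had −0.10, *Npc2* (which binds cholesterol in the lysosome) 0.38 and *Asah1* (acid ceramidase) 0.61, none past the threshold. *Lamp1*, the other main membrane glycoprotein, had 1 UMI in Atf3 high replicate 3, 1 in Atf3 low replicate 1 and none elsewhere. *Hexa*, the alpha subunit of hexosaminidase, had counts of 1, 3 and 1 for Atf3 high and 0, 2 and 1 for Atf3 low. No direction can be read from these counts.

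All 31 listed members together had 3489 UMIs. Their summed level was 4868, 4489.6 and 3782 CPM in Atf3 high and 3666, 4038 and 4344.5 CPM in Atf3 low, or 4379.9 ± 551 and 4016 ± 339.9 CPM (SD, n = 3). The groups overlapped, with a ratio of means of 1.09. The summed level of the 11 cardiomyocyte markers was 26534, 26937 and 50031 CPM in Atf3 high and 51604, 55435 and 67102 CPM in Atf3 low, with every Atf3 high library below. All 11 had a log2 fold change below 0, and *Myh6* fell past an adjusted p of 0.05 (−1.81, adjusted p = 0.00512, edgeR). All 10 fibroblast markers were above 0, 0 of them past an adjusted p of 0.05, and 3 had an unadjusted p under 0.05 (*Postn* 1.59, *Col1a2* 1.33 and *Col3a1* 1.09). Macrophages are rich in lysosomes, and the summed level of 18 of their markers was 569, 567 and 335 CPM in Atf3 high and 391, 551 and 340.5 CPM in Atf3 low, overlapping ranges. Of their 14 tested markers, 9 were above 0 and 5 below, 0 past an adjusted p of 0.05 (edgeR), and only *Tyrobp* had an unadjusted p under 0.05, with 5, 0 and 7 UMIs in Atf3 high and 0 in each Atf3 low library. *Fcer1g* alone did not overlap, with 3, 8 and 4 UMIs against 0, 1 and 1. *Ptprc* and *Aif1* had 3 and 1 UMIs in all. Summed endothelial, mural and erythrocyte markers also overlapped, with ratios of means of 1.13, 1.52 and 1.05. The part of these cell types in the member values was not tested.

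**Figure D4:**
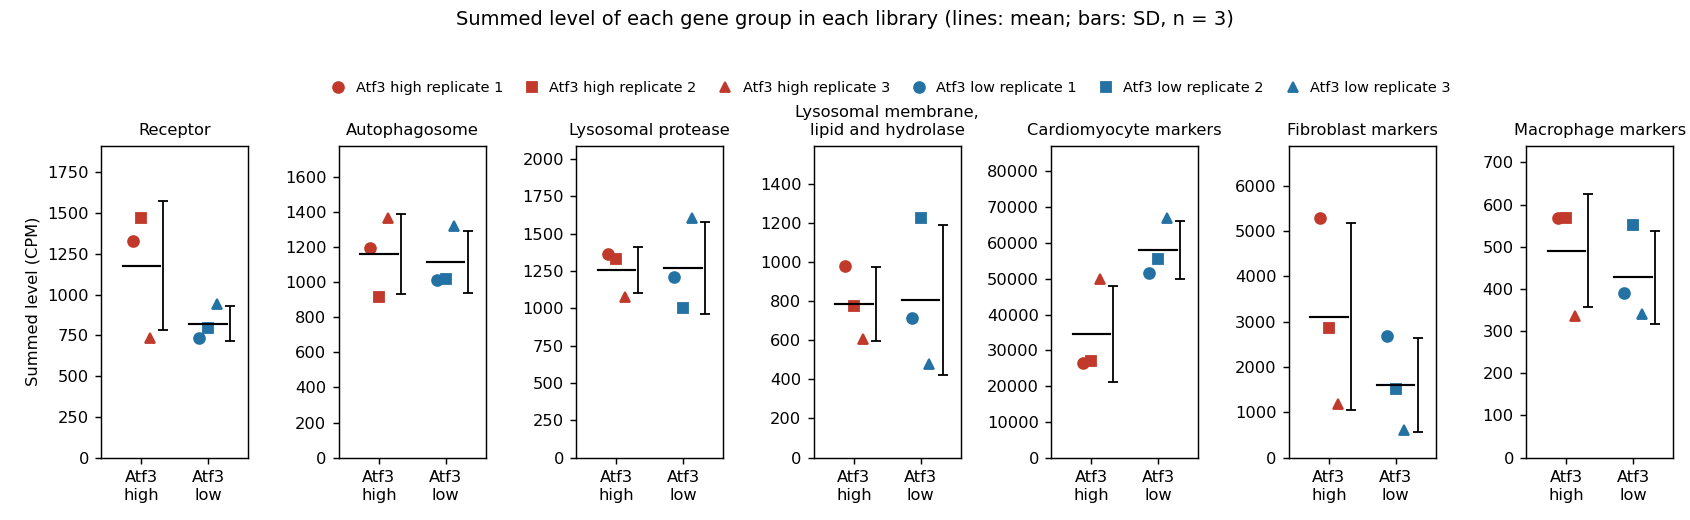
Summed level (CPM, axes from 0) of the 4 member classes and of cardiomyocyte, fibroblast and macrophage markers in each library, with lines for the mean and bars for the SD of 3 libraries per group. The groups overlap in each of the 4 member classes and separate in the cardiomyocyte markers.

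The other 7 lists held 139 other genes of the route, of which 102 were tested, 31 had under 10 UMIs and 6 were not listed. They gave 55 log2 fold changes above and 47 below 0, with a median of 0.06, and 0 passed an adjusted p of 0.05 by edgeR or DESeq2. At an unadjusted p under 0.05 there was 1 in each direction, or 2 of 102, beside 5.79% of all genes. *Atp6v1h*, a subunit of the proton pump (V-ATPase) that acidifies the lysosome, was counted 25, 19 and 7 times for Atf3 high and 7, 1 and 2 times for Atf3 low. Its log2 fold change was 2.08 (standard error 0.78, adjusted p = 0.649, edgeR), and the groups overlapped in CPM. *Retreg1* (FAM134B, a receptor for autophagy of the endoplasmic reticulum) was at 198, 121 and 252 CPM in Atf3 high and at 276, 417 and 545 CPM in Atf3 low. The 3 Atf3 high libraries were all lower than the 3 Atf3 low libraries, and the log2 fold change was −1.07 (standard error 0.45, adjusted p = 0.760, edgeR). Of the 102 genes, 3 had every Atf3 high library below every Atf3 low library, against 3.89% of all genes. Another 3 had every one above, against 7.07% of all genes.

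By list, the 13 tested genes of initiation and nucleation had 8 above and 5 below 0, with *Uvrag* (a Beclin 1 partner, 1 of its 16 UMIs in Atf3 low) at 2.91 and *Tmem41b* (a lipid scramblase) at −1.05 as the genes of smallest p in each direction. Of the 10 of conjugation and fusion, 7 were above 0, with *Atg10* (14 of its 17 UMIs in Atf3 high replicate 1 and 1 in Atf3 low) at 2.97 and the fusion protein gene *Snap29* at −1.87. The 13 of mitophagy and other selective autophagy had 7 above and 6 below 0, with the mitophagy receptor *Bnip3* at 1.52. Nutrient sensing had 10 of 18 above 0, with *Lamtor3* (a lysosomal anchor of mTORC1) at 1.59 and *Tfe3* (a relative of TFEB) at −3.04, for which 9 of 10 UMIs lay in Atf3 low replicate 2. V-ATPase subunits had 8 of 15 above 0, with *Atp6v1f* at −0.87. Other lysosomal enzymes had 7 of 17 above 0, with *Ctsc* (cathepsin C) at −1.36 as the gene of smallest p among those below 0. Other lysosomal membrane genes had 8 of 16 above 0, with the amino acid transporter *Slc38a9* at 1.98 and *Laptm4b* at −1.44. None of these genes passed an adjusted p of 0.05 (edgeR), and their median in each list lay between −0.04 and 0.36.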

How the data were processed

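The authors prepared PIC libraries of FS6KD mouse heart sections by the CEL-seq2 protocol and deposited raw UMI counts for each gene in each library. The submitters' processing notes name HISAT2 (version 2.1.0), UMI-tools (version 1.0.0), featureCounts (version 1.6.4) and GRCm38. Their settings, the strand setting, the annotation release and the treatment of reads shared by several genes were not given in the sources used here. Whether reads of a gene and its antisense partner were kept apart is therefore not known. Exons of *Ctsa*, *Ctsb*, *Ctsd*, *Ctsl*, *Ctsz*, *Gabarapl1*, *Grn*, *Hexa*, *Lamp1*, *Map1lc3b*, *Optn* and *Sqstm1* overlap those of another gene, and their counts are uncertain to that extent.

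The deposited counts were analysed as 3 Atf3 high and 3 Atf3 low libraries as labelled. The study describes biological replicates. Counts of same-group libraries differed beyond sampling noise (chi-square from 3.55 to 5.07 times its degrees of freedom), which cannot show whether they came from different mice. Genes holding 10 or more UMIs in total were kept. TMM factors came from these genes, and glmQLFTest was run after glmQLFit in edgeR (version 4.0.16; R version 4.3.3) without covariates, and p-values were adjusted by Benjamini-Hochberg over all 7665 genes. The study used a 2-tailed t test on normalized values, which its figure legend calls pairwise. Whether that means paired libraries was not stated. A count model was used here because counts were deposited. Levels are CPM of the TMM-scaled library. The test was checked on simulated data. The members, lists and tests were chosen with earlier results of these data known. Full statistics are given for members with an unadjusted p under 0.05 or no overlap between groups and for the 2 most counted of each class; *Gabarapl2* and *Ctsl* were added after their values were seen. From each other list the gene of smallest p in each direction was named, except for 1 that is not reported here. Alternatives were library size and RLE scaling, DESeq2 (version 1.42.0), limma-voom and limma-trend (version 3.58.1), other filters, a replicate block, thinning to 81117 UMIs and leaving out each library.

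Positions came from GENCODE M21 (GRCm38) and promoter windows from RefSeq (GRCm38.p6). Near-identical copies were sought with BLAST+ (version 2.17.0), at 95% identity or more over 200 bases or more.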

Additional observations from a re-analysis of the deposited data

Results flagged for a closer look

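In replicate 2 of Atf3 high, *Ddx3y* and *Eif2s3y*, both on the Y chromosome, had 16 UMIs, 8 of each, and *Xist* had 0, where the other 5 libraries together held 1 UMI of the former pair and from 3 to 26 UMIs of *Xist* each. The labels give a female mouse. It was marked because these genes are outside the comparison of autophagy and lysosome mRNAs and were counted above the level of the Atf3 low libraries. Without this library, 0 of the 29 tested members passed an adjusted or an unadjusted p of 0.05 (edgeR). Of all 7326 genes tested then, 1 passed the adjusted and 328 the unadjusted p. Without it, 17 members had a log2 fold change above 0 and 12 below, against 14 and 15 with it.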

How the results depend on the processing

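No member passed an adjusted p of 0.05 under any of 15 alternatives, and none of the 102 other tested genes of the route under the 9 run for them. Not every member could pass in each: filterByExpr tested 18 members, thinning left 26 and leaving out Atf3 high replicate 1 left 26. DESeq2 gave no adjusted p for some members, such as *Ulk1* and *Atg3*. At an unadjusted p under 0.05, where edgeR with TMM gave 0 members, there were 2 with library size scaling (*Gabarapl2* and *Sqstm1*), 1 with limma-trend and 1 after thinning (*Nbr1* in each), and from 0 to 2 on leaving out single libraries (2 without Atf3 high replicate 3, *Sqstm1* and *Ctsl*, and 2 without Atf3 low replicate 1, *Ctsd* and *Ctsl*, with 1 without Atf3 high replicate 1, *Scarb2*, and 1 without Atf3 low replicate 3, *Gabarapl2*). Among the other genes of the route the count of 2 became 5 with library size scaling and between 1 and 7 when single libraries were dropped. Over all genes an unadjusted p under 0.05 was reached by 514 of 7665 with library size scaling and 442 of 7665 with limma-trend. After thinning it was 332 of 5595. Without Atf3 high replicate 3 it was 446 of 6588, and without Atf3 low replicate 1 it was 477 of 7026. Without Atf3 high replicate 1 it was 282 of 6598, and without Atf3 low replicate 3 it was 351 of 7412. These member counts are not read as changes of the members named. Over all genes, 7 calls at an adjusted p of 0.05 became 12 with DESeq2 and from 0 (without Atf3 low replicate 1, 477 at an unadjusted p under 0.05) to 11 with a library left out. The unadjusted calls over all genes went from 444 to 249 with DESeq2 and to 119 with filterByExpr, which tested 1988 genes.

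Replicate numbers were shared by both groups. Deviations of libraries with the same number correlated at 0.085, 0.001 and 0.066, and those with different numbers from −0.095 to 0.019. The values for numbers 1 and 3 were the highest, while Atf3 high replicate 2 correlated best with Atf3 low replicate 1 (0.010). These values do not settle whether a number marks a shared heart, and the main fit used no pairing. With the replicate block, 0 members passed an adjusted p of 0.05, beside 24 of all 7665 genes. An unadjusted p of 0.05 was passed by 2 members (*Nbr1* and *Ctsl*), 4 other genes of the route and 369 of all 7665 genes. The block also turned *Atg5* to 0.27, *Atg7* to 0.56 and *Grn* to 0.18.

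The median of all members moved to 0.24 with limma-voom. That of the receptors moved from 0.31 to 0.51 with library size scaling, 0.49 with limma-voom and 0.69 with filterByExpr. That of the membrane, lipid and hydrolase class moved from 0.14 to −0.31 with filterByExpr. The filterByExpr medians cover only the 18 members it kept. *Calcoco1* was not among them, and *Sqstm1*, the receptor at the median there, had 0.68 in the main fit. With single libraries left out, class medians ranged from −0.29 to 0.56 (membrane, lipid and hydrolase), −0.20 to 0.47 (protease), −0.25 to 0.18 (autophagosome) and 0.19 to 0.31 (receptor), and that of all members from −0.06 to 0.14. The log2 ratio of the summed level of all members moved from 0.13 to 0.32 with library size scaling. With library size scaling the sign turned for *Atg5* (0.065), *Optn* (0.14), *Ctsa* (0.0080) and *Grn* (0.076), with limma-voom for *Atg5* (0.36), *Atg7* (1.45), *Atg12* (−0.016), *Calcoco1* (0.35), *Ctsa* (0.24) and *Grn* (0.11), and with limma-trend for *Atg5* (0.22), *Atg7* (0.27) and *Grn* (0.18). Without a filter it turned for *Optn* (0.0079), and after thinning for *Ulk1* (0.023), *Wipi1* (0.14), *Wipi2* (−0.21), *Atg5* (0.070) and *Optn* (0.16). The cause was not tested. With each library left out, the sign turned in 14 members, whose ranges were −0.65 to 0.078 for *Ulk1*, −0.70 to 1.53 for *Atg5*, −0.95 to 4.61 for *Atg7*, −1.85 to 1.37 for *Atg12*, −0.42 to 0.67 for *Map1lc3a*, −0.32 to 0.60 for *Map1lc3b*, −0.62 to 0.12 for *Gabarap*, −0.37 to 0.12 for *Optn*, −1.34 to 0.33 for *Calcoco1*, −0.84 to 0.21 for *Ctsa*, −0.77 to 0.54 for *Ctsz*, −0.12 to 1.65 for *Npc2*, −0.13 to 2.23 for *Asah1* and −0.53 to 0.85 for *Grn*. *Ctsa*, *Ctsz* and *Asah1* fell under 10 UMIs without some of the libraries, so their ranges cover fewer fits. Depth limits all of these values: a member at 0 UMIs in a library could have been at up to 14.0 to 40.9 CPM, depending on the library.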
